A study of Mus musculus with 19 samples.

Results

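The ligands and receptors through which blood vessels grow and keep their lining were followed in mouse lung over 3 doses of a polycyclic aromatic hydrocarbon mixture. The 10 genes were Vegfa, Angpt1, Angpt2 and Apln (ligands), Kdr, Flt1, Tek, Tie1 and Aplnr (receptors) and Cdh5 (the endothelial junction cadherin). They were defined by gene symbol, with no measured value in the rule, and were 10 of the 20660 gene symbols that the array could be matched to. A probe was taken for a gene when its RefSeq accession mapped to the symbol, which gave 12 probes: 2 for Vegfa (NM_001025257, probe 1, and NM_001025250, probe 2), 2 for Kdr (both NM_010612, probe 1 being the brighter in lung) and 1 for each other gene. All 12 were well above background in the lung channel of 19 of 19 arrays, and all were among the 30999 probes tested.

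Male MutaMouse animals, a transgenic mutation reporter strain (on a BALB/c and DBA/2 background) of about 12 weeks, were gavaged for 28 consecutive days and their lungs were taken 72 h after the last dose. The vehicle treated controls received olive oil alone (D0, 5 mice), and the dose groups received the defined hydrocarbon mixture (8 compounds) in olive oil at 15 (D1, 4 mice), 30 (D2, 5 mice) and 60 (D3, 4 mice) mg benzo[a]pyrene (BaP) equivalents/kg-bw/day. Lung RNA labelled with Cy5 was hybridised against the same Cy3-labelled Universal Mouse Reference RNA (a pool of 11 mouse cell lines) on 2-colour Agilent 8 x 60K arrays. Values below are log2 ratios of lung over reference, after loess normalization within each array, and a log2 difference is given with its fold change where the results turn on it.

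Vegfa is secreted by epithelium and other cells and signals mainly through Kdr (VEGFR2) on endothelium, whereas Flt1 (VEGFR1) binds Vegfa tightly and holds much of it away from Kdr. Angpt1 activates Tek (TIE2) and steadies the vessel wall, Angpt2 can oppose it, and Tie1 pairs with Tek without a firmly established ligand of its own. Apln acts through Aplnr, a G protein-coupled receptor of endothelium, and Cdh5 (VE-cadherin) holds endothelial cells to each other. In whole lung RNA, fewer endothelial cells and less RNA per endothelial cell cannot be told apart.

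Median spot brightness ranged from 114 to 151.5 in the lung channel and from 65 to 93 in the reference channel, and 54.5% to 64.7% of probes were well above background in lung. No non-control spot was saturated. Mouse 23, labelled D2, has a number that falls among those of D1. The methods give group sizes of 5, 5, 4 and 4, which counting it in D1 would match. It was kept as labelled, and as an alternative it was counted in D1. That change made Tek the 1 member passing at D1. The 18 mice had mean log2 ratios of 4.69 to 5.48 over 7 alveolar type 2 probes, so lung epithelium was well represented against the reference in every mouse.

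With mouse 23 kept in D2, no member passed the limma test (Benjamini-Hochberg adjusted p at most 0.05 over all 30999 probes) in any comparison. At D3 against D0, 0 of 12 member probes passed, where 12.4% of all probes did (7.9% without mouse 35 of D3). At D1 against D0 the count was 0 of 12, beside 4.74% of all probes, and at D2 against D0 it was 0 of 12, beside 2.09%. The dose groups set against each other also gave 0 of 12 each, beside 0% of all probes for D2 against D1, 0.181% for D3 against D2 and 0.206% for D3 against D1. In the linear trend over dose 0 of 12 passed, beside 6.56%. At an unadjusted p under 0.05, the same limma fit had 2 member probes at D1 (Tek and probe 2 of Kdr), 0 at D2 and 2 at D3 (Aplnr and probe 1 of Vegfa). Over all probes the unadjusted shares were 19.8%, 14.7% and 26.2%. The unadjusted counts of members were 0 for D2 against D1, 1 for D3 against D2, 2 for D3 against D1 and 2 for the trend, beside 9.83%, 11.7%, 7.67% and 22.1% of all probes. The median difference of the 12 probes was -0.06 at D1, -0.02 at D2 and -0.14 at D3, where the median over all probes lay between -0.00 and 0.01. Under median centring of the arrays in place of loess the member medians were 0.17, 0.17 and 0.03 and the medians over all probes 0.17, 0.12 and 0.06, so the sign of the member medians depended on the scaling.

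These counts leave room for moderate differences. The 95% intervals of the member differences at D3 had half-widths of 0.18 to 0.56 and reached from -1.25 (Aplnr) to 0.56 (Cdh5). For 9 of the 12 probes at D3 the whole interval lay inside a 1.5-fold difference in either direction, and Aplnr, Vegfa probe 1 and Apln were those whose interval ran past it. At D1 and at D2 it was 11 of 12, with probe 1 of Kdr past it. The fit had no term for the slide, which held 89.0% of the within-group variance of that probe.

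**Figure D1:**
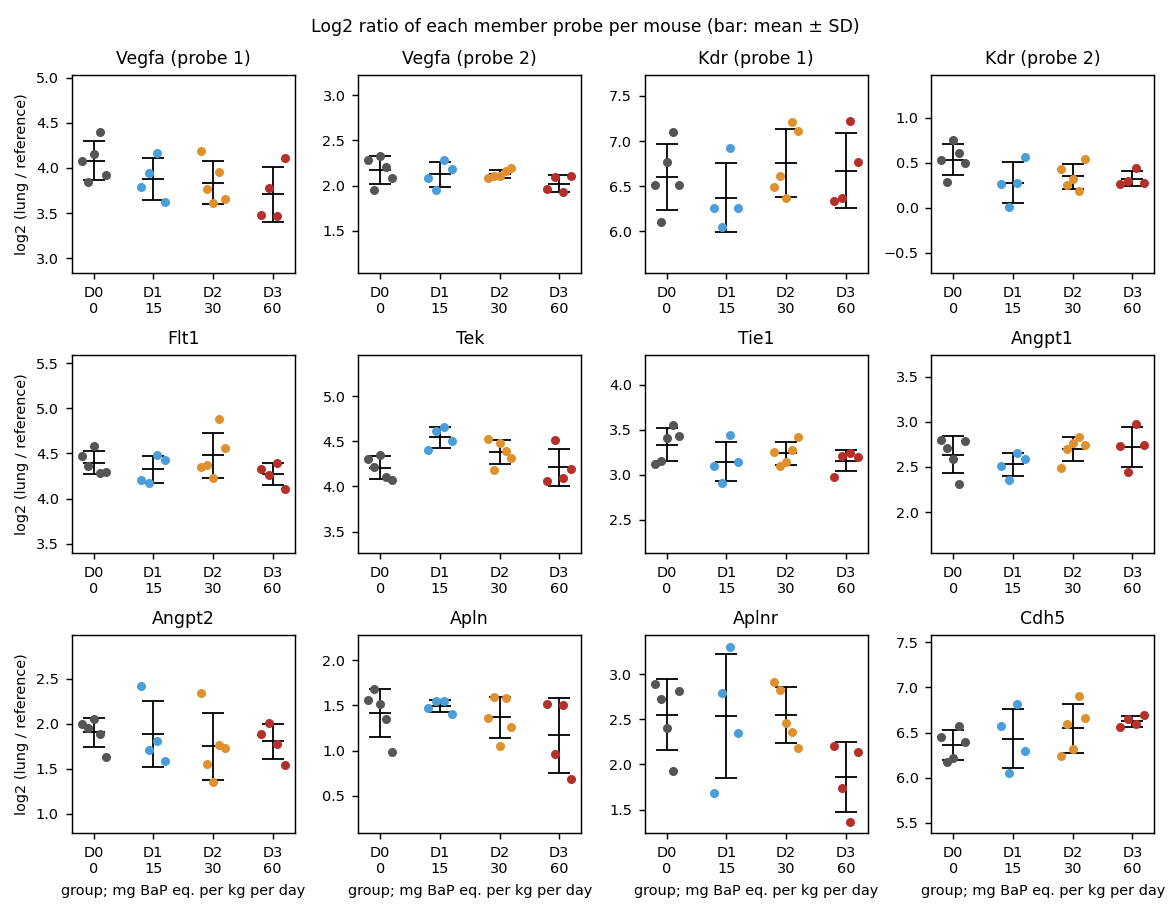
Log2 ratio of lung over reference (y axis, all panels spanning the same range of units) for the 12 member probes in each of 18 mice, by group and dose in mg BaP equivalents/kg-bw/day (x axis), with bars for the mean ± SD. Aplnr at D3 lies between 1.37 and 2.21 and overlaps D0 in mouse 4 of D0 at 1.93, while Tek at D1 (4.40 to 4.66) lies above every D0 mouse.

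**Figure D2:**
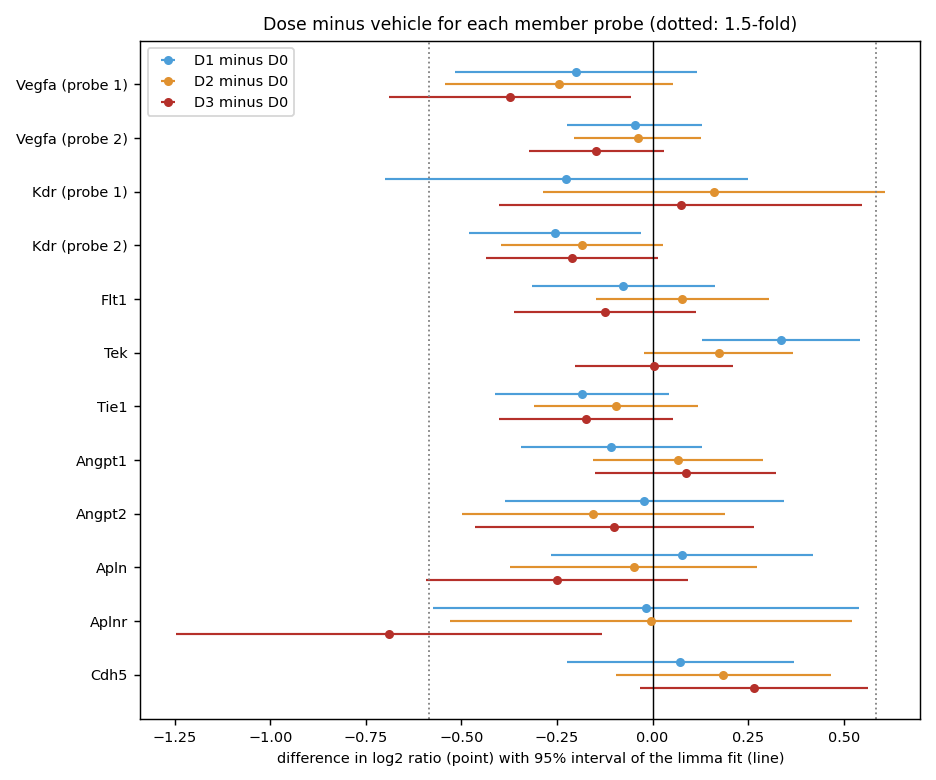
Difference in log2 ratio of each dose group from the vehicle treated controls (points) with 95% intervals of the limma fit (lines), for the 12 member probes, with dotted lines at a 1.5-fold difference. The D3 point of Aplnr at -0.69 lies beyond the 1.5-fold line, and the other points lie within it.

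Vegfa, the ligand, had the lowest mean loess-normalized ratio at the top dose on both of its probes, without passing. The log2 ratio of probe 1 was 4.08, 3.85, 4.16, 4.40 and 3.93 in the D0 mice and 3.48, 3.78, 3.47 and 4.11 in the D3 mice. In D3, 3 of the 4 values lay below every D0 mouse, and mouse 35 at 4.11 lay within them. The means were 4.08 ± 0.22 (SD, n = 5) at D0, 3.88 ± 0.23 (n = 4) at D1, 3.84 ± 0.24 (n = 5) at D2 and 3.71 ± 0.30 (n = 4) at D3. The difference at D3 was -0.37 (95% interval -0.69 to -0.06, limma adjusted p = 0.118). Without mouse 35 it was -0.51 and passed (limma adjusted p = 0.0445), the other 3 D3 mice all lying below the controls. Within the slides the D3 difference was -0.33 and -0.51 on slides 1 and 2 and 0.23 on slide 3, which held 1 array of D0 and 1 of D3. That D3 array was of mouse 35, which also had an array on slide 2. Probe 2 differed by -0.15 at D3 (interval -0.32 to 0.03, limma adjusted p = 0.284), with all 4 D3 mice below the D0 mean. Under median centring the D3 difference was -0.11 for probe 1 and 0.08 for probe 2. In the lung channel alone it was -0.27 and 0.003, so the direction of probe 2 depended on the processing.

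The angiopoietins did not pass at any dose. Angpt1, the Tek agonist, ranged from 2.31 to 2.80 in D0 mice and from 2.44 to 2.98 in D3 mice, a difference of 0.09 (interval -0.15 to 0.32). Its D3 difference was 0.48 on slide 2 and -0.17 and -0.18 on slides 1 and 3. Angpt2 ranged from 1.63 to 2.05 in D0 mice and from 1.54 to 2.01 in D3 mice, a difference of -0.10 (interval -0.46 to 0.26). Mouse 21 of D1 and mouse 23 of D2 had the highest Angpt2 values of the 18 mice, 2.41 and 2.34, and the next was 2.05 in D0.

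Apln, the ligand of Aplnr, split the top dose group. Its log2 ratios at D3 were 1.52 in mouse 31 and 1.503 in mouse 34, and 0.97 and 0.69 in mice 32 and 35. The D0 mice had 1.56, 1.68, 1.52, 1.35 and 0.99, so the first pair of D3 mice lay within the controls and the second pair lay below the lowest of them. The difference was -0.25 ± 0.16 (SE, interval -0.59 to 0.09, limma adjusted p = 0.357). It was -0.38, -0.29 and -0.40 on slides 1, 2 and 3. Mouse 35 had an array on slide 2 and the only D3 array of slide 3, so those 2 values are not independent.

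Aplnr, the apelin receptor, had the largest difference among the members after loess normalization. Its log2 ratio was 2.89, 2.72, 2.41, 1.93 and 2.81 in the D0 mice. The D3 mice had 2.21, 1.74, 1.37 and 2.14. All 4 D3 mice lay below 4 of the 5 controls, and only mouse 4 of D0 at 1.93 lay among them. D1 (1.69, 2.80, 3.30 and 2.35) and D2 (2.83, 2.46, 2.36, 2.18 and 2.91) overlapped D0 throughout, and their means differed from it by -0.02 and -0.00. The D3 difference was -0.69 ± 0.27 (SE), which is 1.61-fold lower (interval -1.25 to -0.13, limma adjusted p = 0.100). Of all probes, 2.43% passed with at least a 1.5-fold difference at D3, and no member was among them. Without mouse 4 of D0 the Aplnr difference was -0.85 and passed (limma adjusted p = 0.0489). Within slides 1, 2 and 3 it was -0.83, -0.37 and -0.76. Slides 2 and 3 are not independent here, as both held an array of mouse 35 of D3.

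Aplnr was also the most variable member. Its SD between mice of a group was 0.45, above 98.2% of all tested probes, where the median probe had 0.15. The reference RNA gave no Aplnr signal well above background on any of 19 arrays, and the SD between mice was 0.05 to 0.12 per group in the reference channel and 0.35 to 0.62 in the lung channel. In the lung channel alone, quantile normalized, Aplnr was 0.81 lower at D3 on the log2 scale (difference -0.81, limma adjusted p = 0.0733), while the reference channel differed by -0.04. With the scanner software's processed signals, which are background-subtracted, the Aplnr ratio differed by -0.12. Kdr probe 1 and Tie1 differed more with these signals, by -0.28 and -0.25.

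The VEGF receptors Kdr and Flt1 did not pass at any dose. Their promoters are shown because polycyclic aromatic hydrocarbons act through the aryl hydrocarbon receptor (AHR), whose binding sites contain GCGTG, and these are the receptor genes among the members with that motif in the 250 bases before the RefSeq start (GRCm38.p6). Capitals mark GCGTG, or CACGC where it reads on the other strand.
Kdr (chr5:75978456-75978705, minus strand): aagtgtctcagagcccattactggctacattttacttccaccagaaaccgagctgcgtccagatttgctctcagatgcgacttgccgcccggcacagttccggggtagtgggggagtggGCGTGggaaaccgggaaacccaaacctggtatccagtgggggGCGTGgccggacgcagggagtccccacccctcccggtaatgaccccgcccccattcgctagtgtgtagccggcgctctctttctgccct
Flt1 (chr5:147726012-147726261, minus strand): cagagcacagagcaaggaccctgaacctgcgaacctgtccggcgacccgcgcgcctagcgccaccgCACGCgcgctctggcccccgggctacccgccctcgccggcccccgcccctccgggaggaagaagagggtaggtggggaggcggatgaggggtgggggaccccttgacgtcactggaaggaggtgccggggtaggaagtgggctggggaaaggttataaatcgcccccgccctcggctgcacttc
Kdr held 2 matches and Flt1 held 1, and 28.2% of all 32851 windows of this length held at least 1. The hypoxia motif ACGTG, searched on both strands, was in neither window and in 16.6% of all windows. The windows of Tek, Tie1 and Apln held neither motif. Of the 2 Vegfa windows, the upstream one held neither. The other (chr17:46025164-46025413) lies downstream of that start and held 1 of each, and whether it acts as a promoter was not tested. The set of promoter sequences used here held no entry for Angpt1, Angpt2, Aplnr and Cdh5.

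The 2 Kdr probes carry the same accession, but their place in the transcript was not analysed here, and likewise for the 2 Vegfa probes. Probe 1 read 6.51, 6.11, 6.76, 7.10 and 6.52 in the D0 mice and 6.33, 6.37, 7.22 and 6.77 in the D3 mice. The groups overlapped almost fully, and the difference was 0.07 (interval -0.40 to 0.55). With processed signals it was -0.28. Probe 2 ranged from 0.28 to 0.75 at D0 and from 0.27 to 0.45 at D3, a difference of -0.21 (interval -0.44 to 0.01, limma adjusted p = 0.222), and all 4 D3 mice lay below the D0 mean. At D1 its difference was -0.26 (limma adjusted p = 0.185). Flt1 ranged from 4.28 to 4.58 at D0 and from 4.11 to 4.40 at D3, a difference of -0.12 (interval -0.36 to 0.11). Mouse 29 of D2 had the highest Flt1 value of the series, 4.88.

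Tek, the angiopoietin receptor, came closest to the threshold, at the lowest dose. The D0 mice had 4.31, 4.21, 4.35, 4.11 and 4.07, and the D1 mice had 4.40, 4.61, 4.66 and 4.51. Every D1 mouse lay above every D0 mouse, and Tek was the 1 member probe of 12 with this separation at D1, where 8.93% of all probes had groups that did not overlap. At D2 and D3 it was 0 of 12, beside 4.11% and 14.6% of all probes. The difference was 0.34 ± 0.10 (SE), or 1.26-fold (interval 0.13 to 0.54, limma adjusted p = 0.0581). It was 0.25, 0.43 and 0.44 within slides 1, 2 and 3. The Tek difference was 0.17 at D2 (interval -0.02 to 0.37) and 0.00 at D3 (interval -0.20 to 0.21), and D3 against D1 gave -0.33 (limma adjusted p = 0.338). The Tek difference at D1 passed in 4 other settings, among them mouse 23 counted in D1, and was -0.16 with processed signals. The reference channel gave Tek signal above background on 9 of 19 arrays.

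Tie1, the partner of Tek, read 3.13, 3.16, 3.40, 3.55 and 3.43 in the D0 mice and 2.98, 3.21, 3.24 and 3.20 in the D3 mice. The D3 mice lay below the D0 mean in 4 of 4 cases but overlapped the controls, with a difference of -0.17 (interval -0.40 to 0.05, limma adjusted p = 0.329). The channels taken apart differed in the other direction. The lung channel was 0.41 higher at D3 than at D0 on the log2 scale, and the reference channel 0.66 higher, although the reference RNA is the same on every array. At D1 these differences were 0.38 and 0.65. The array column followed the dose group on every slide, so array position and dose cannot be told apart, in a single channel or in the ratio.

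Cdh5, the junction cadherin, read 6.45, 6.17, 6.22, 6.57 and 6.39 in the D0 mice and 6.56, 6.65, 6.59 and 6.70 in the D3 mice. Of the D3 mice 3 lay above every control while mouse 31 at 6.56 lay just under the highest. The value of mouse 35 is the mean of arrays that read 6.93 and 6.46. The difference was 0.27 (interval -0.03 to 0.56, limma adjusted p = 0.250). The means were 6.36 at D0 and 6.43, 6.55 and 6.63 at D1, D2 and D3. With processed signals the D3 difference was -0.06, and the reference signal of Cdh5 was above background on 8 of 19 arrays. In the lung channel alone Cdh5, Tie1 and probe 1 of Kdr passed at D3, with differences of 0.36, 0.41 and 0.45 (limma adjusted p = 0.0456, 0.0237 and 0.0252). The reference channel of the same 3 probes was higher at D3 by 0.15, 0.66 and 0.40.

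**Figure D3:**
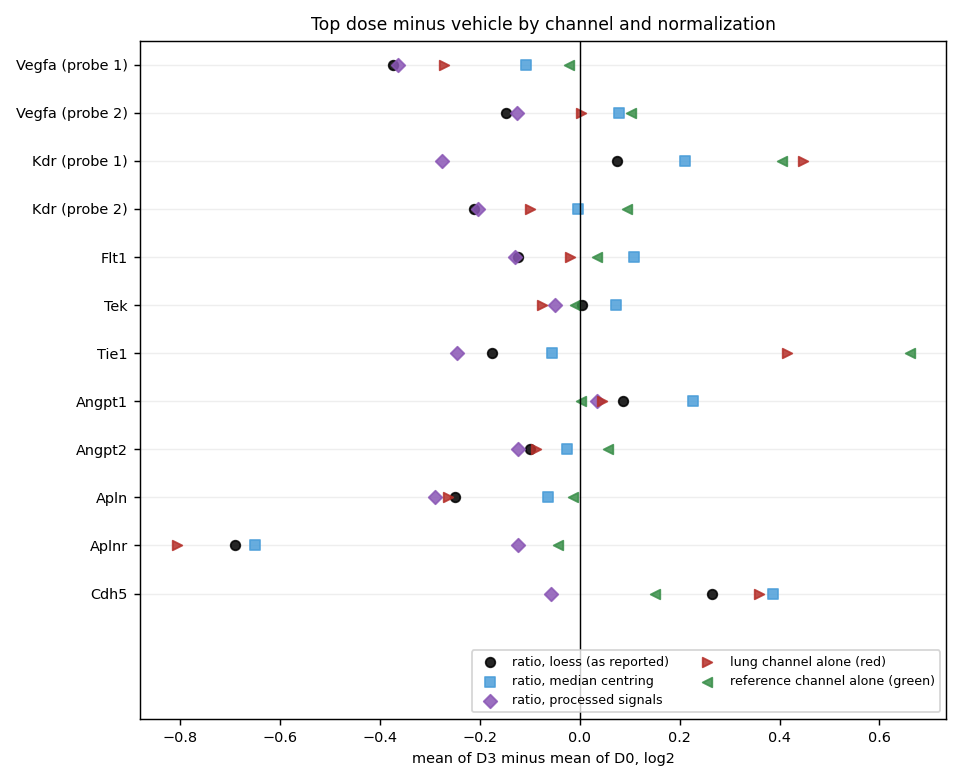
Mean of D3 minus mean of D0 on the log2 scale (x axis) for the 12 member probes, as the loess-normalized ratio, under 2 other normalizations, and for the lung and reference channels each taken alone. Tie1 is at -0.17 as a ratio but at 0.41 in the lung channel and 0.66 in the reference channel, and Aplnr is at -0.69 as a ratio and -0.04 in the reference channel.

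Kdr, Tie1 and Cdh5 varied together from array to array. Deviations from the group mean of Kdr probe 1 correlated with those of Tie1 (Pearson r = 0.795) and Cdh5 (r = 0.734) over 19 arrays that share slides and reference. The slide accounted for 89.0% of the within-group variance of Kdr probe 1, more than for 99.7% of probes, with a median over all probes of 25.8%. On slide 2 Kdr probe 1 lay on average 0.42 above the group means, and on slides 1 and 3 it lay at -0.28 and -0.18. For Tie1 the slide share was 69.3% and for Cdh5 38.9%, whereas for Tek it was 0.590% and for Angpt2 1.57%. With the slide means taken out, the correlation of Kdr probe 1 with Tie1 was 0.206 and with Cdh5 0.686. The 2 arrays of mouse 35, on slides 2 and 3, also differed, with second minus first at -0.64 for Kdr probe 1, -0.47 for Cdh5, -0.32 for Tie1 and -0.27 for Angpt1, and the other 8 member probes lay between -0.21 and 0.16. Probe 2 of Kdr followed probe 1 weakly (r = 0.427, and 0.0595 with the slide taken out). With the slide as a block, the D3 difference of Kdr probe 1 was 0.10 (limma adjusted p = 0.509).

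**Figure D4:**
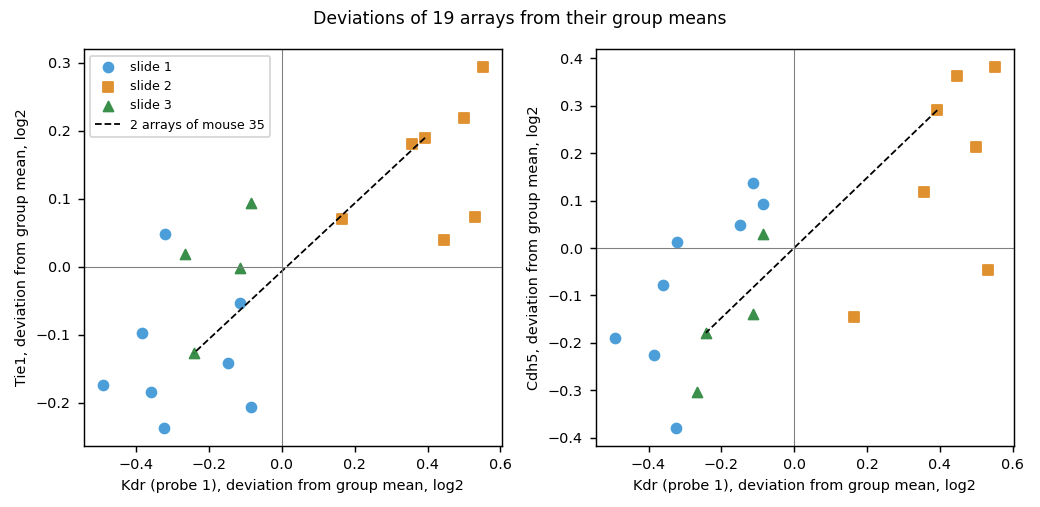
Deviation of each of 19 arrays from its group mean on the log2 scale, for Kdr probe 1 (x axis) against Tie1 and Cdh5 (y axes), with marker shape and colour for the slide and a dashed line joining the 2 arrays of mouse 35. All arrays of slide 2 lie to the right of those of slides 1 and 3, whose Kdr deviations average -0.28 and -0.18.

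The other genes of the pathway were taken from lists of gene names, chosen with earlier results of these data known. Their shares are therefore no independent evidence on the pathway. Of 80 listed genes tested with 103 probes, 24 probes passed at D3, 12 higher (11 genes) and 12 lower (11 genes), which is 23.3%, beside 12.4% of all probes (6.03% higher and 6.37% lower). At D1 6 of the 103 probes passed (5.83%, beside 4.74% of all probes) and at D2 7 did (6.8%, beside 2.09%). With median centring in place of loess 0 of the 103 probes passed, and 98 of 30999 did. Under that scaling the calls over all probes were 82.7% higher, against 48.6% with loess, and all named pathway genes kept their direction. Several named decreases were smaller under it by over 1.5 times, with differences of -0.19 for Id3, -0.16 for Ldha, -0.27 and -0.31 for Vash1, -0.33 for Bmpr2, -0.27 for Efnb2 and -0.32 for Adm.

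Among the VEGF relatives, 1 of 8 probes passed at D3, near the 12.4% of all probes. The D3 counts of the other lists stand beside the same 12.4%. Vegfc, the lymphatic growth factor, rose by 0.63 (limma adjusted p = 0.0153), from 0.77 ± 0.29 (SD, n = 5) at D0 to 1.40 ± 0.12 (n = 4) at D3. All 8 probes of this list had positive differences, with a median of 0.25. The co-receptor Nrp1 differed by 0.43 and the lymphatic receptor Flt4 by 0.25 without passing. For Ptprb, the phosphatase that restrains Tek, neither of 2 probes passed (-0.34 each).

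Among junction genes 1 of 9 probes passed, also near the 12.4% of all probes. Pecam1, an adhesion molecule that sits beside Cdh5 at endothelial contacts, read 2.85, 2.76, 3.26, 3.00 and 3.33 in the D0 mice and 3.67, 3.58, 3.74 and 3.82 in the D3 mice. The groups did not overlap, and the increase was 0.66 (limma adjusted p = 0.00673). At D1 Pecam1 rose by 0.67 (limma adjusted p = 0.0136), and at D2 it differed by 0.28 (limma adjusted p = 0.363).

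Notch and ephrin genes went both ways, with 2 probes higher and 3 lower of 13. Notch4, the endothelial Notch receptor, rose at every dose, by 0.54, 0.51 and 0.67 at D1, D2 and D3 (limma adjusted p = 0.0114, 0.0176 and 0.00106). Jag2, a Notch ligand, rose by 0.50 at D3 (limma adjusted p = 0.00793). The Notch ligand Dll1 fell by 0.75 (limma adjusted p = 0.0115), and the arterial ephrin Efnb2 fell by 0.47 on 1 of its 2 probes (limma adjusted p = 0.0304). That Efnb2 probe passed in 24 of the 31 alternative settings. Notch1, outside the naming rule, was the third lower probe at -0.34.

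Of the BMP9 receptor genes 2 of 6 probes passed, both lower. Bmpr2, a receptor subunit, fell by 0.58 at D3 (limma adjusted p = 0.00356), and Id3, a transcriptional target of BMP signalling, fell by 0.45 (limma adjusted p = 0.00224). Of 17 probes for endothelial transcription factors 1 passed, a share below the 12.4% of all probes. Gata2 fell at every dose, by 0.44, 0.43 and 0.67 (limma adjusted p = 0.00458, 0.00517 and 4.55e-05), and its 4 D3 mice (2.06 to 2.20) lay below all D0 mice (2.68 to 2.98).

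Of 9 probes for genes of sprouting tip cells 2 were higher and 1 was lower at D3, the latter with the largest decrease of the pathway. Esm1, a secreted proteoglycan known as a VEGF-induced product of tip cells, read 2.59, 2.83, 2.93, 1.74 and 2.44 in the D0 mice. The D3 mice had 1.43, 1.43, 0.61 and 1.06, all below the lowest control. Esm1 fell by 1.37 on the log2 scale, or 2.59-fold, at D3 (limma adjusted p = 0.00223) and by 0.97 at D2 (limma adjusted p = 0.0461). Unc5b, a netrin receptor, and Nid2, a basement membrane protein, rose by 0.49 and 0.35 (limma adjusted p = 0.00714 and 0.0489). Nid2 passed in 7 of the 31 alternative settings. Plxnd1, a semaphorin receptor outside the naming rule, fell at D1 and D2 on 1 of its 2 probes, by 0.62 and 0.48 (limma adjusted p = 0.00214 and 0.0108), and at D3 the difference was -0.31 (limma adjusted p = 0.0517).

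Of 11 probes for angiogenesis inhibitors 4 were higher and 2 lower. Timp3, a metalloproteinase inhibitor that also blocks Vegfa binding to Kdr, rose by 0.66 (limma adjusted p = 0.00115), and Col18a1, the precursor of endostatin, rose on both probes, the larger by 0.65 (limma adjusted p = 0.00193). Sema3a, a guidance ligand outside the naming rule, was the fourth higher probe at 0.41. Vash1, an inhibitor made by endothelium itself, fell by 0.58 and 0.57 on 2 of its 3 probes (limma adjusted p = 0.0243 and 0.0353). Those 2 probes passed in 26 and 25 of the 31 alternative settings. Among hypoxia genes 5 of 28 probes passed. The oxygen-regulated factor Hif1a and the hypoxia-induced gene Ndrg1 rose by 0.41 and 0.45 (limma adjusted p = 0.0016 and 0.0173), while the vasodilator peptide Adm and 1 of 3 probes of the glycolytic enzyme Ldha fell by 0.50 and 0.39 (limma adjusted p = 0.0419 and 0.00716). The third lower probe was that of the carbonic anhydrase Car9 at -0.34, also outside the naming rule. Adm passed in 16 of the 31 alternative settings at D3, and at D2 it fell by 0.77 (limma adjusted p = 0.00887). Ndrg1 also rose at D1 and D2, by 0.47 and 0.49 (limma adjusted p = 0.0281 and 0.0245).

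**Figure D5:**
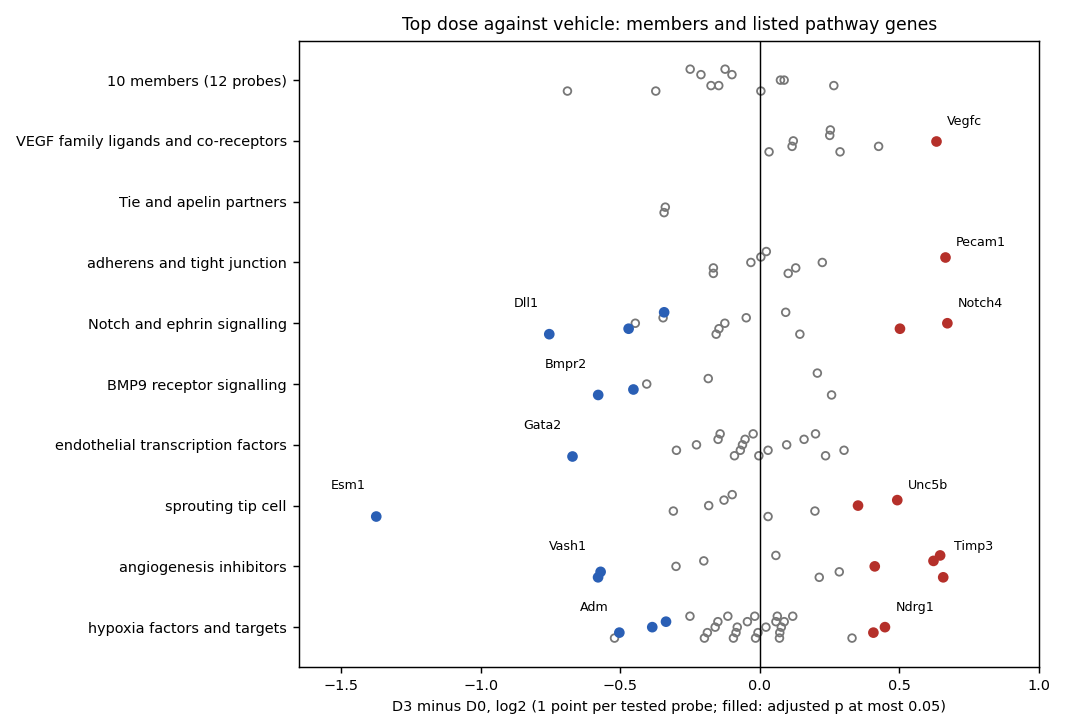
Difference of D3 from D0 on the log2 scale (x axis) for each tested probe of the 10 members and of 9 pathway lists (rows), with filled points for an adjusted p of at most 0.05 (red higher, blue lower). No member point is filled, and the passed pathway points reach from -1.37 (Esm1) to 0.67 (Notch4).

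The cell type markers were read beside these results, and the marker genes named here were chosen after their values were seen. Of all probes 6.03% passed higher and 6.37% lower at D3, and the marker counts stand beside these shares. The mean log2 ratio of 17 general endothelial probes ranged from 4.19 to 4.64 over the D0 mice and from 4.46 to 4.77 over the D3 mice. In that list 3 probes rose and 0 fell at D3: Mmrn2 by 2.16, Emcn by 0.73 and Pecam1 by 0.66 (limma adjusted p = 3.8e-07, 0.0089 and 0.00673). Of 7 general capillary probes 1 passed, Gpihbp1, which fell by 2.45, and the list mean ranged from 3.41 to 3.77 at D0 and from 3.08 to 3.29 at D3. The median difference of these 7 probes was 0.02, and 4 of them had positive differences. Of 7 aerocyte probes Ednrb (2 probes, by 0.90 and 0.80) and Fibin (by 0.77) fell and Prx rose by 0.57, with list means of 2.94 to 3.15 at D0 and 2.53 to 2.96 at D3. Of the lymphatic list 2 probes were tested and Lyve1 rose by 1.31, the other, Mmrn1, differing by -0.09 without passing, while Prox1 and Reln were not bright enough to be tested. Among 7 alveolar type 2 probes Abca3 and Sftpb fell by 0.48 and 0.36, with list means of 4.93 to 5.48 at D0 and 4.69 to 5.08 at D3, and among 7 leukocyte probes Laptm5 fell by 0.44. For pericytes, smooth muscle, alveolar type 1 cells and cardiac muscle 0 probes passed at D3, and the cardiac list ranged from 2.10 to 2.73 at D0, from 0.53 to 3.67 at D1, from 0.43 to 3.24 at D2 and from 0.39 to 3.27 at D3. The share of cell composition in the members' values was not tested.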

How the data were processed

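Lung gene expression was measured on 19 two-colour arrays of 18 mice. The deposited scanner files hold median spot intensity in both channels, made with Feature Extraction 11.0.1.1 per the file headers. A deposited series table holds log2 ratios that the authors had normalized. The median intensities, without background subtraction, were normalized by loess within each array (span 0.3) with control and outlier spots at weight 0, in R 4.3.3 and limma 3.58.1. Spots of a probe were averaged, as were the 2 arrays of mouse 35, taken by its number as 1 animal. Of 55681 probes, 80 lacked a spot in some mouse and were dropped, and 30999 were well above background in the lung channel in at least 4 mice of 1 group. One limma model over the 4 groups stood in for MAANOVA, which the methods name, and p-values were adjusted over all tested probes by Benjamini-Hochberg.

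All 10 members were named. Of each pathway list the up to 2 largest increases and 2 largest decreases that passed at D3 were named, and for members that passed the most alike genes, of which there were 0. The members and the pathway and marker lists were chosen with earlier results of these data known. RefSeq symbols were matched for 21465 of 22765 accessions (GRCm38.p6), which also gave the promoter sequences. The number of arrays limits the precision. Alternatives were median centring, a loess span of 0.7, normexp background correction (offset 50), processed signals, the deposited log2 table, the lung channel alone, other filters, the slide as a block, mouse 23 in D1, single arrays of mouse 35, the 2 compared groups alone, and each mouse left out. Slides 1, 2 and 3 held 8, 7 and 4 arrays and all 4 groups each. Each group had the same array column on every slide, so array position and dose cannot be told apart in any comparison.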

Additional observations from a re-analysis of the deposited data

Results flagged for a closer look

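Tie1 in mouse 31 of D3 had a log2 ratio of 2.98, and the other 3 mice of the group lay between 3.20 and 3.24, so the gap took up more of the group's range than Dixon's 95% limit for 4 samples allows. Of 48 sets of 1 member probe in 1 group this was the 1 that stood out, where chance gives about 1 in 20.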

How the results depend on the processing

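The count of member probes that passed was 0 in every comparison as reported. It became 1 (Tek) at D1 with a loess span of 0.7, with normexp, and with mouse 23 counted in D1. With the lung channel alone it was 3 at D3 (Tie1, Kdr probe 1 and Cdh5) and 2 in the trend, and the Tie1 difference at D3 turned from -0.17 to 0.41. Leaving out 1 mouse at a time gave 0 to 1 at D1 (1 without mouse 32 of D3) and 0 to 1 at D3 (Aplnr without mouse 4 of D0, Vegfa probe 1 without mouse 35 of D3). The 24 pathway probes that passed at D3 became 0 with median centring, 35 with the slide as a block and 16 to 26 with 1 mouse left out, the lowest without mouse 35 of D3. The cause of these shifts was not tested. Of 1116 member values recomputed, 70 changed sign, and in 1 of these (Tie1 above) a value passed. The named pathway genes, which were named because they passed at D3 in these data, changed sign in 0 of 620. Leaving out a mouse of a group not compared, or changing only the filter, could not alter a difference, so both counts overstate the stability. The intervals of single members, with half-widths of up to 0.56 at D3, and a reference signal at background for Aplnr limit what these arrays can show. No pairing by animal was possible because the mouse numbers differ between the groups, and the slide was the block used (5590 of 30999 probes passed at D3 with it, against 3843).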
